A study of Mus musculus with 50 samples.

Results

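The genes described here make, break down and sense prostaglandins: Ptgs1, Ptgs2, Ptges, Ptgis, Ptgds, Hpgd, Ptger1, Ptger2, Ptger3 and Ptger4. They were chosen by gene symbol, which picked 10 of the 56691 genes in the table, each by 1 row. Colon was taken from 50 BALB/c mice in 5 groups of 10, with 1 poly(A) RNA-seq library per mouse, and the series text names the distal part. Sham mice formed the first group. The other 4 groups all received TNBS (trinitrobenzene sulfonic acid, a hapten that provokes colitis) and then either vehicle or the compound A1007 at 10, 30 or 90 mpk, the dose unit as the labels write it. According to the series text A1007 works by mouth and activates AhR, the aryl hydrocarbon receptor, which is a ligand-dependent transcription factor; the question is what underlies its effect in this colitis. The genotype label is BALBC for every mouse and all mice are placed in batch 1. The mice's age, sex and day of sampling, and whether sham mice received vehicle, were not given.

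Prostaglandins are short-lived lipid signals made from arachidonic acid. The cyclooxygenases Ptgs1 (present in most tissues) and Ptgs2 (induced by cytokines and growth factors) form the shared precursor, terminal synthases such as Ptges, Ptgis and Ptgds turn it into prostaglandin E2, prostacyclin and prostaglandin D2, and the dehydrogenase Hpgd inactivates them. Prostaglandin E2 acts through the receptors EP1 to EP4, encoded by Ptger1 to Ptger4, and is known in the colon for effects on epithelial repair, secretion, smooth muscle and leukocytes.

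Promoter sequence is shown for Ptgs2 and Ptges, the members with the largest falls at 30 and 90 mpk of A1007, and for Hpgd, which moved the other way. RefSeq promoter windows on GRCm38.p6 were matched for 8 of the 10 members, with none for Ptgis and Ptger1. The build differs from that of the counts (GRCm39), and the reference strain is not BALB/c. Each line gives the 250 bases before the annotated start, 5′ to 3′ on the gene's strand, and capitals mark GCGTG or its reverse complement CACGC, the core letters of the AhR binding element.
Ptgs2 (chr1:150099781-150100030, plus strand): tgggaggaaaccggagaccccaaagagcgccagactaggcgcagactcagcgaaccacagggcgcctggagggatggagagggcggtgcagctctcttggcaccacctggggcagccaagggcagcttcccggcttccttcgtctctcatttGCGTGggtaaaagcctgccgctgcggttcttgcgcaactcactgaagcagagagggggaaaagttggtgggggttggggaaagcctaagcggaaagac
Ptges (chr2:30903298-30903547, minus strand): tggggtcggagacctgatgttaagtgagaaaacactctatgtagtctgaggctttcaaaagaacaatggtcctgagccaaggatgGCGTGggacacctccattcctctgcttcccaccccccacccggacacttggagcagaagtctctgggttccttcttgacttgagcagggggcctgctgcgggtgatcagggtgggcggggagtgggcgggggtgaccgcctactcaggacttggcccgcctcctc
Hpgd (chr8:56294302-56294551, plus strand): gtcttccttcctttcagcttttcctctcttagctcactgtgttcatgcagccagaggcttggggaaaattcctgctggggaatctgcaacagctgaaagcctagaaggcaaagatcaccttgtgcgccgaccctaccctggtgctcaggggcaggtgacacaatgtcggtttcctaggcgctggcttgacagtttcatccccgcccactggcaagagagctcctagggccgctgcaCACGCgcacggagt

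The core letters occurred once in each of these 3 windows and once in that of Ptger3, and were not found in the windows of Ptgs1, Ptgds, Ptger2 and Ptger4. They were present in 28.2% of the 32851 mouse promoter windows of the same length, both strands searched. In the Ptgs2 window the letters began 98 bases before the start, in Ptges 165 and in Hpgd 14. Ptgs2 also held the C/EBP pattern TTNNGNAA, as the palindrome TTGCGCAA 69 bases before the start and as TTGGGGAA 25 bases before it. A GC box (GGGCGG) lay 170 bases before the start. Neither was particular to Ptgs2. The C/EBP pattern also occurred in the windows of Ptges, Ptgds, Hpgd and Ptger2, and the GC box in those of Ptges, Hpgd, Ptger3 and Ptger4. Of all windows 36.8% held the C/EBP pattern and 32.7% the GC box on either strand. The overlapping cyclic AMP response letters (CGTCA) and E-box (CACGTG) of Ptgs2 lay just past the annotated start, in the 30 bases at chr1:150100035-150100064, where capitals mark both.
Ptgs2 element: tcaccactaCGTCACGTGgagtccgcttta

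A match of letters is a description and shows no binding. Nothing in these data measured a factor at these positions.

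Library totals ran from 14373337 to 20446967 counts per mouse. The defining markers of colon epithelium were detected in every group. Vehicle mouse 6 stood apart by a summed level of 39013 CPM (counts scaled to library size) of 5 pancreatic acinar genes, against a median of 2.34 CPM over its group and at most 2053 CPM in any other group, and results that rest on it are given without it. In 2 dosed mice (10 mpk mouse 6 and 30 mpk mouse 1) Xist was below 2 CPM while the Y-linked Ddx3y had no count, and calls that changed without both mice are named below. Of the 10 members, 9 passed the filter on low counts. Ptgds did not.

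TNBS vehicle mice carried more RNA of 4 synthesis genes (Ptgs1, Ptgs2, Ptges and Ptgis) and less of the breakdown gene Hpgd than sham mice. Of 9 tested members 5 were called higher (Ptgs1, Ptgs2, Ptges, Ptgis and Ptger2) and 2 lower (Hpgd and Ptger4), with edgeR's quasi-likelihood test at a Benjamini-Hochberg adjusted p under 0.05. Over all 17928 genes 18.2% were called higher and 13.5% lower in that comparison. The members' median log2 fold change was 0.46, beside 0.02 over all genes. In dosed mice Ptgs2, Ptges and Ptger3 were lower and Hpgd and Ptger4 higher than in vehicle mice, each at both 30 and 90 mpk. At 10 mpk no member was called higher (2.83% of all genes were) and 1 of 9 lower, Ptges (2.91% of all genes). At 30 mpk 2 of 9 were higher (13.5% of all genes) and 4 lower (17.9%). At 90 mpk 2 were higher (7.12%) and 3 lower (11.1%). The members' median log2 difference from vehicle was -0.24 at 30 mpk and -0.30 at 90 mpk, beside -0.02 and -0.01 over all genes. These comparisons share the same 10 vehicle mice, so their values are not independent of each other or of the comparison of vehicle with sham. Without vehicle mouse 6 the members called numbered 7 against sham, 2 at 10 mpk, 6 at 30 mpk and 4 at 90 mpk. Counts over all genes in those fits are not given here, so a shift of the whole table cannot be told apart. Without the 2 mice low in Xist the members called numbered 1, 5 and 5 at the 3 doses. Over all genes 580, 6309 and 3320 were then called, beside 1030, 5625 and 3266 with all mice.

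**Figure D1:**
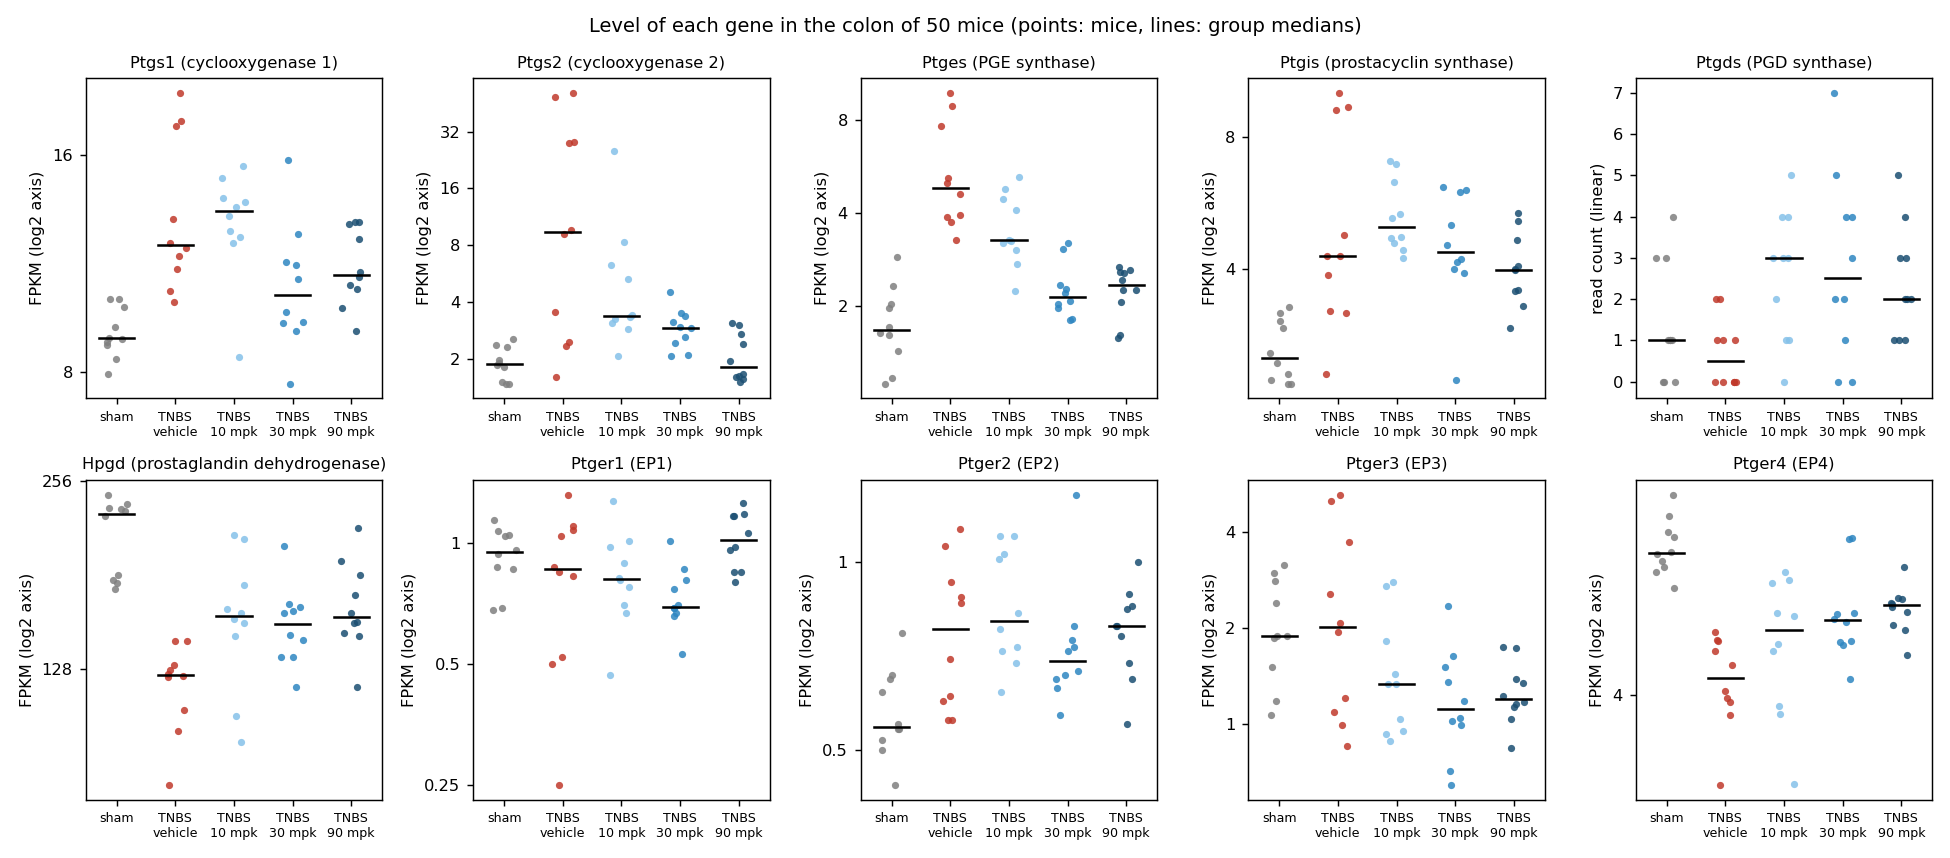
Level of each member in each of the 50 mice, by group, with black lines at group medians; FPKM is on a log2 axis, and Ptgds is given as read counts on a linear axis. Ptges in vehicle mice lay above every sham mouse and above every mouse at 30 and 90 mpk, while Ptgs2 spread from 1.60 to 51.21 FPKM among vehicle mice.

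**Figure D2:**
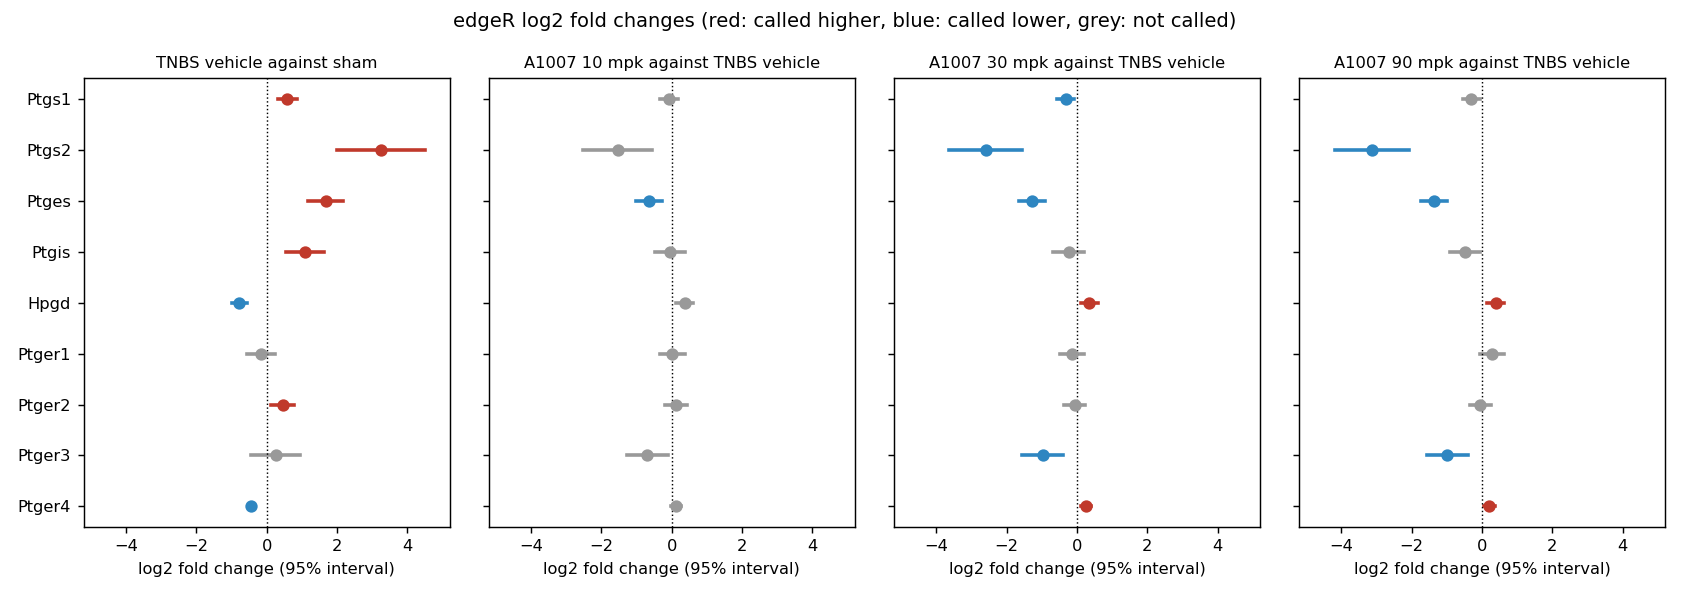
Log2 fold change of the 9 tested members with 95% intervals from edgeR, in vehicle against sham and in each dose against vehicle; red and blue mark members called higher and lower, grey those not called. Ptgs2 and Ptges stand highest against sham and lowest against vehicle at 30 and 90 mpk, and Hpgd and Ptger4 lie on the other side of 0 in all 4 panels.

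Levels are compared between genes as FPKM, which scales counts by exon length and library size. The order of levels in sham mice was led by Hpgd, at a median of 227.1 FPKM, followed by Ptgs1 at 8.92, Ptger4 at 5.54 and Ptgis at 2.52. The ranges of these 4 genes did not overlap. Ptger3 (1.89), Ptgs2 (1.88) and Ptges (1.67) followed with ranges that overlapped each other and that of Ptgis. Ptger1 (0.95) overlapped Ptges and Ptger3 from below, Ptger2 (0.55) overlapped Ptger1, and Ptgds was last at 0.03 FPKM with no overlap. In vehicle mice the median of Ptgs2, 9.36 FPKM, stood next after Hpgd and Ptgs1, and its range overlapped those of Ptgs1, Ptges, Ptgis, Ptger3 and Ptger4.

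Ptgs2 (chr1:149975782-149983978, GRCm39), the inducible cyclooxygenase, had the largest log2 differences of the 9 tested members, up in vehicle mice and down at each dose. Sham mice spanned 1.48 to 2.55 FPKM with a median of 1.88. Vehicle mice spanned 1.60 to 51.21 with a median of 9.36, and 7 of the 10 lay above every sham mouse. The 4 highest, at 51.21, 48.47, 28.04 and 27.68 FPKM, were vehicle mice 5, 8, 9 and 2, and the other 6 were below 10 FPKM. The log2 fold change against sham was 3.25 (95% interval 2.0 to 4.51, edgeR adjusted p = 0.000453), and it was 3.38 without vehicle mouse 6, whose value was the lowest of its group. In bulk tissue, fewer cells of a type and less RNA per cell cannot be told apart, here and in all results below.

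At 10 mpk Ptgs2 ran from 2.07 to 25.23 FPKM around a median of 3.39, with 9 mice at or below 8.31 and mouse 8 at 25.23. The log2 difference from vehicle was -1.54 (95% interval -2.53 to -0.56), which missed the threshold (edgeR adjusted p = 0.0519). Of 10 alternatives 8 did not call it either (adjusted p up to 0.596), while DESeq2 and a fit of all 50 mice did (adjusted p = 0.0205 and 0.0211). The difference was called without 10 mpk mouse 8 (-2.12, edgeR adjusted p = 0.00747) or 5, and without vehicle mouse 6 (-1.67, edgeR adjusted p = 0.0328), 1, 3, 4 or 10. At 30 mpk all 10 mice lay between 2.08 and 4.51 FPKM (median 2.92), and Ptgs2 fell by 2.6 on the log2 scale (95% interval -3.63 to -1.57, edgeR adjusted p = 0.00027). That call was lost with the rank-sum test (log2 ratio of median CPM -1.59, adjusted p = 0.204), and limma on log2 of FPKM plus 1 gave -1.52 (adjusted p = 0.00699). At 90 mpk the range was 1.5 to 3.09 (median 1.81), with a log2 difference of -3.14 (95% interval -4.19 to -2.08, edgeR adjusted p = 7.66e-05). Both upper ranges stayed below the median of vehicle mice, although the lowest vehicle mice overlapped them. The level at 90 mpk differed from sham by 0.11 on the log2 scale (95% interval -0.21 to 0.42, edgeR adjusted p = 0.59), while at 30 mpk it was still higher than in sham mice (0.64, edgeR adjusted p = 0.000379), a call that was lost with all 50 mice in 1 fit (adjusted p = 0.23). The spread among mice moved too. The coefficient of variation of FPKM was 19.9% in sham, 105% in vehicle, 109% at 10 mpk, 24.8% at 30 mpk and 29.8% at 90 mpk. Without 10 mpk mouse 8 the value at 10 mpk was 47.5%.

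Markers of neutrophils moved beside Ptgs2. The summed level of 6 neutrophil markers (S100a8, S100a9, Cxcr2, Csf3r, Mmp9 and Retnlg) ran from 4.28 to 10.5 CPM in sham mice, 27.4 to 4223 in vehicle mice, 12.8 to 502.8 at 10 mpk, 10.6 to 44.0 at 30 mpk and 11.5 to 43.6 at 90 mpk. All 6 were called higher in vehicle than in sham mice and all 6 lower at 30 and at 90 mpk than in vehicle mice. No marker was at 0 in any group. Among the 10 vehicle mice log2 Ptgs2 and the log2 marker level had Pearson r = 0.82 (permutation p = 0.00496) and Spearman rho = 0.73. Over the family of 36 relations (9 members in 4 TNBS groups) neither held after adjustment (adjusted permutation p = 0.102 and 0.24). Without the 2 mice farthest from the median marker level r was 0.82. At 10 mpk r was 0.66 and became 0.43 without the 2 farthest mice, at 30 mpk it was -0.27 and at 90 mpk 0.07. Vehicle mouse 6 had 268.6 CPM of the markers with 1.60 FPKM of Ptgs2. None of the 36 relations passed the adjustment, and the part of neutrophils in the Ptgs2 result was not tested.

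Ptgs2 is itself an immediate early gene, and 7 others (Fos, Fosb, Jun, Junb, Egr1, Ier2 and Atf3) were read beside it. Their summed level had medians of 480.8 CPM in sham, 421 in vehicle, 1047 at 10 mpk, 1738 at 30 mpk and 552.5 at 90 mpk. None of the 7 was called between vehicle and sham, whereas 5 were called higher at 10 mpk and all 7 at 30 mpk than in vehicle mice. At 90 mpk none was called. Within groups log2 Ptgs2 and the log2 level of these genes had r = 0.17 in sham, 0.53 in vehicle, -0.11 at 10 mpk, 0.11 at 30 mpk and 0.32 at 90 mpk, and none passed in a family of 20 relations added after the data were seen (adjusted permutation p from 0.173 to 0.784). The genes most like Ptgs2 across the 50 mice, after each group's mean was subtracted from log2 CPM, were the chemokine Cxcl3 (r = 0.85), the activin subunit Inhba (0.83) and the cytokine Il1b (0.83), given as a description over mice that share groups.

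Ptges (chr2:30779483-30819875), the inducible microsomal synthase of prostaglandin E2, separated vehicle mice without overlap from sham mice and from mice at 30 and 90 mpk. Sham mice lay between 1.12 and 2.87 FPKM (median 1.67) and vehicle mice between 3.25 and 9.75 (median 4.79), with no overlap. The log2 fold change was 1.67 (95% interval 1.19 to 2.16, edgeR adjusted p = 2.37e-05). Mice at 10 mpk ranged from 2.23 to 5.23 (median 3.25), which overlapped vehicle, and Ptges was lower by a log2 difference of -0.65 (95% interval -1.02 to -0.29, edgeR adjusted p = 0.0285). That call was lost without vehicle mouse 6 (-0.57, edgeR adjusted p = 0.0534), and also without 10 mpk mouse 2 or 7 or vehicle mouse 5 or 9. Of 10 alternatives 6 kept the call. It was lost with no filter and in a fit of only these 2 groups. Limma on log2 of FPKM plus 0.1 and the rank-sum test did not call it either. Adjusted p over the alternatives reached 0.318. At 30 mpk the range was 1.80 to 3.20 (median 2.14) and at 90 mpk 1.57 to 2.67 (median 2.33), so that every mouse of both groups was below every vehicle mouse. Ptges fell by 1.29 on the log2 scale at 30 mpk (95% interval -1.66 to -0.92, edgeR adjusted p = 6.93e-06) and by 1.36 at 90 mpk (95% interval -1.73 to -0.99, edgeR adjusted p = 9.65e-06). Against sham, Ptges at 30 mpk was higher by 0.37 (edgeR adjusted p = 0.0419), a call that was lost without the 2 mice low in Xist, and at 90 mpk by 0.31 (edgeR adjusted p = 0.0896), which missed the threshold. Its nearest genes by the same measure were C1rl (r = 0.81), Mmp19 (0.78) and Dram1 (0.78). Within vehicle mice Ptges and the neutrophil marker level had r = 0.76 and within 10 mpk mice 0.72 (adjusted permutation p = 0.102 for both), while r was 0.58 at 30 mpk and 0.20 at 90 mpk (0.208 and 0.747).

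Ptgs1 (chr2:36120438-36142284), the cyclooxygenase present in most tissues, differed less. It spanned 7.97 to 10.11 FPKM in sham mice (median 8.92) and 10.02 to 19.5 in vehicle mice (median 12), with 9 of 10 vehicle mice above every sham mouse. The log2 fold change was 0.59 (95% interval 0.33 to 0.86, edgeR adjusted p = 0.00138). Medians in dosed mice were 13.4 at 10 mpk, 10.2 at 30 mpk and 10.9 FPKM at 90 mpk. The log2 differences from vehicle were -0.07 at 10 mpk (95% interval -0.32 to 0.18), -0.32 at 30 mpk (edgeR adjusted p = 0.0428) and -0.30 at 90 mpk (95% interval -0.55 to -0.05, edgeR adjusted p = 0.0813). The 30 mpk call was lost in 5 of 10 alternatives: with no filter, in a fit of only these groups, with quantile normalization, with the rank-sum test and without the 2 mice low in Xist. It was also lost, singly, without any of 8 mice (30 mpk mouse 1, 2, 3, 4 or 10, vehicle mouse 2, 5 or 9). Ptgs1 was called higher than in sham mice at every dose, by 0.52, 0.25 and 0.28 on the log2 scale at 10, 30 and 90 mpk (edgeR adjusted p = 5.78e-05, 0.0177 and 0.000637). At 30 mpk 5 of 10 mice lay above every sham mouse and 1 lay below every sham mouse. That call was lost with both limma fits on log2 FPKM (adjusted p up to 0.0539). Its nearest genes were Nxn (r = 0.82), Tuba1a (0.81) and Olfm1 (0.81).

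The balance of the 2 cyclooxygenases was read within each mouse as the ratio of their FPKM values, which are per exon length. In sham mice the ratio of Ptgs2 to Ptgs1 had a median of 0.211 and reached 0.289. In vehicle mice it ran from 0.134 to 4.17 (median 0.873), with 4 of 10 mice above 1. At 10 mpk 1 mouse was above 1 (median 0.328). At 30 and 90 mpk none was, with medians of 0.264 and 0.151.

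**Figure D3:**
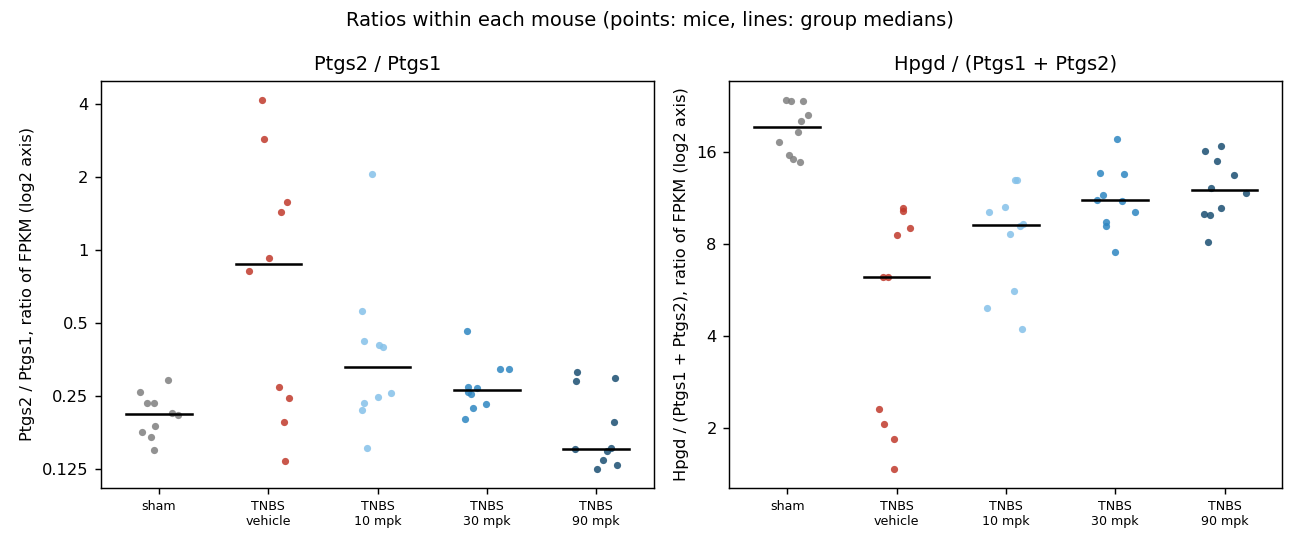
Ratio of Ptgs2 to Ptgs1 (left) and of Hpgd to the sum of Ptgs1 and Ptgs2 (right), from FPKM values within each mouse, on log2 axes, with black lines at group medians. The first ratio exceeded 1 in 4 vehicle mice and 1 mouse at 10 mpk, and the second was lowest in vehicle mice.

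Ptgis (chr2:167033725-167082524), the synthase of prostacyclin in vessel wall and stroma, rose with TNBS and was not called at any dose against vehicle. Sham mice spanned 2.2 to 3.29 FPKM (median 2.52) and vehicle mice 2.31 to 10.1 (median 4.30), with 7 of 10 above every sham mouse (log2 fold change 1.09, 95% interval 0.55 to 1.63, edgeR adjusted p = 0.00324). The 3 highest vehicle mice were 6, 5 and 9. Medians in dosed mice were 5.0, 4.39 and 4.0 FPKM at 10, 30 and 90 mpk. The log2 differences from vehicle were -0.06 (95% interval -0.49 to 0.37), -0.24 (-0.67 to 0.20) and -0.48 (-0.92 to -0.05, edgeR adjusted p = 0.112). Against sham all 3 dosed groups were higher, by 1.02, 0.83 and 0.59 on the log2 scale (edgeR adjusted p = 2.04e-06, 3.1e-05 and 0.000165). Its nearest genes were Serping1 (r = 0.81), Mgp (0.81) and Bmp1 (0.80). The summed level of 5 fibroblast markers had medians of 873.5 CPM in sham, 2659 in vehicle, 2300 at 10 mpk, 1544 at 30 mpk and 1631 at 90 mpk. All 5 were called higher in vehicle than in sham mice, 4 of 5 were lower at 30 and at 90 mpk than in vehicle mice, and none was at 0 in any group. Within groups r between Ptgis and these markers ranged from 0.27 at 30 mpk to 0.76 at 90 mpk, in the same added family. Only the 90 mpk relation passed by Pearson's r (adjusted permutation p = 0.0334) and it did not by Spearman's rho (0.0753). The part of fibroblast RNA in the Ptgis result was not tested.

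Ptgds (chr2:25356721-25360058), a synthase of prostaglandin D2, was near the limit of detection. Counts per mouse ran from 0 to 7 and summed over 10 mice to 14 in sham, 7 in vehicle, 26 at 10 mpk, 28 at 30 mpk and 24 at 90 mpk. With no filter on low counts (38779 genes) the 30 mpk comparison with vehicle was called (log2 fold change 1.86, 95% interval 0.62 to 3.10, edgeR adjusted p = 0.0372). The 10 and 90 mpk comparisons were not (edgeR adjusted p = 0.157 and 0.13), and neither was vehicle against sham (0.521). These values rest on a few reads per mouse.

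Hpgd (chr8:56747620-56774078), the dehydrogenase that starts the breakdown of prostaglandins, was the most abundant member. It was lower in vehicle than in sham mice, and higher than in vehicle mice at 30 and 90 mpk. Sham mice held 172.2 to 243.8 FPKM (median 227.1) and vehicle mice 83.3 to 141.9 (median 125.2), with no overlap. Hpgd fell by 0.79 on the log2 scale (95% interval -1.0 to -0.57, edgeR adjusted p = 1.04e-05). Mice at 10 mpk ranged from 97.8 to 210.1 (median 155.5), at 30 mpk from 119.6 to 201.5 (median 151.2) and at 90 mpk from 119.8 to 215.1 (median 154.9). The 3 dosed ranges overlapped vehicle at their low end, with 8, 7 and 9 of 10 mice above every vehicle mouse. Log2 differences from vehicle were 0.36 at 10 mpk (95% interval 0.12 to 0.61, edgeR adjusted p = 0.061), 0.35 at 30 mpk (0.10 to 0.59, edgeR adjusted p = 0.0258) and 0.39 at 90 mpk (0.15 to 0.64, edgeR adjusted p = 0.0179). The 30 mpk call was lost without 30 mpk mouse 4 or vehicle mouse 2 or 5, and the 10 mpk difference was called without 10 mpk mouse 1 or 5 or vehicle mouse 1 or 6. Hpgd remained below sham at each dose, by log2 differences of -0.42, -0.45 and -0.40 (edgeR adjusted p = 0.0136, 9.36e-05 and 0.0022).

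Hpgd is known from differentiated surface epithelium, and its nearest genes by within-group deviation were Adtrp (r = 0.87), Cyp3a13 (0.86) and Ces2e (0.84). The summed level of 6 surface colonocyte markers (Slc26a3, Car4, Car1, Aqp8, Krt20 and Guca2a) had medians of 6234 CPM in sham, 3215 in vehicle, 3980 at 10 mpk, 3240 at 30 mpk and 3830 at 90 mpk, with none at 0. Of the 6, 3 were called lower in vehicle than in sham mice and none was called at any dose against vehicle. The log2 levels of Hpgd and of these markers had r = 0.81 in sham, 0.53 in vehicle, 0.89 at 10 mpk, 0.68 at 30 mpk and 0.85 at 90 mpk. By Pearson's r those in sham, 10 mpk and 90 mpk mice passed in the added family (adjusted permutation p = 0.0209, 0.006 and 0.0113). By Spearman's rho (0.73, 0.77 and 0.78) none of these 3 did (0.0753, 0.0655 and 0.0655). Without the 2 farthest mice r was 0.90, 0.84 and 0.70. The share of surface colonocytes in the Hpgd differences was not tested.

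The ratio of Hpgd to the sum of both cyclooxygenases joined the 2 directions. It had a median of 19.3 in sham mice (14.8 to 23.7), 6.23 in vehicle mice (1.47 to 10.5), 9.20 at 10 mpk (4.22 to 12.9), 11.1 at 30 mpk (7.54 to 17.5) and 12 at 90 mpk (8.10 to 16.7). Sham and vehicle ranges did not overlap, and all 3 dosed ranges overlapped vehicle. The 10 mpk range lay below every sham mouse.

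**Figure D4:**
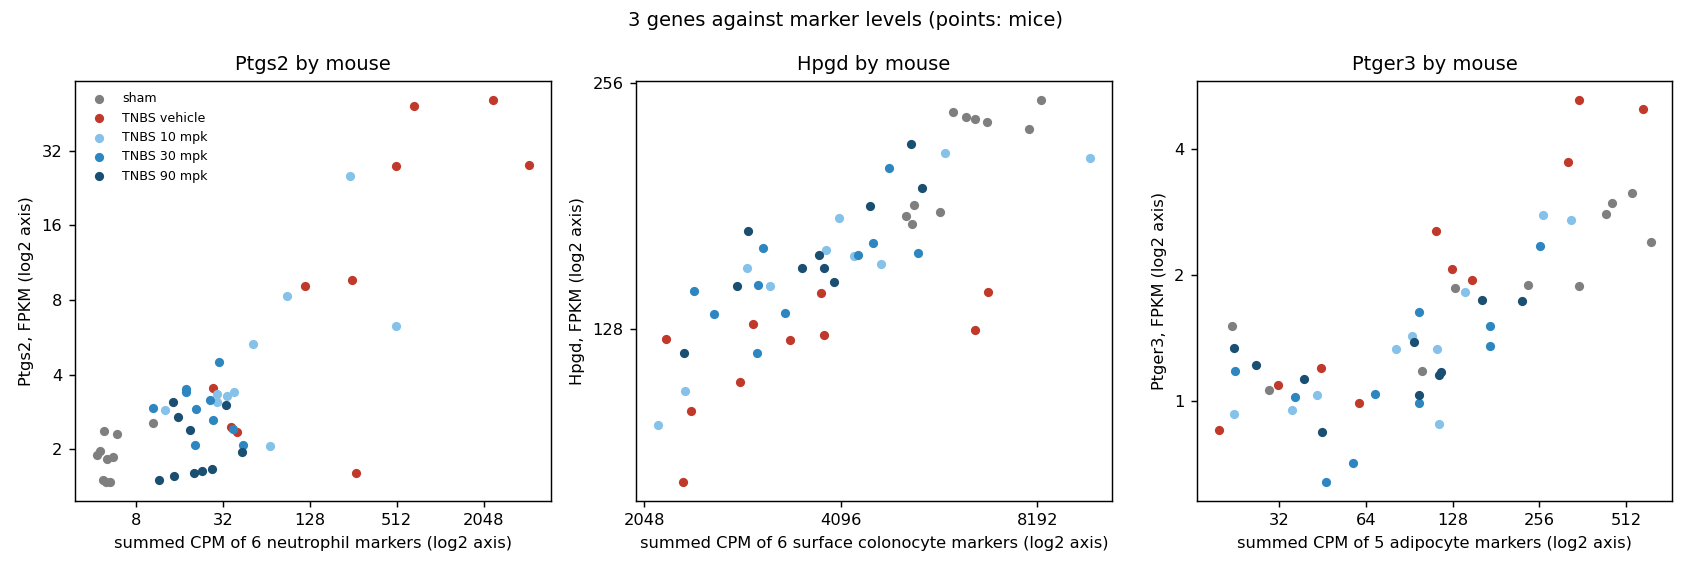
FPKM of Ptgs2, Hpgd and Ptger3 in each mouse against the summed CPM of neutrophil, surface colonocyte and adipocyte markers, on log2 axes, coloured by group. Vehicle mouse 6 (268.6 CPM of neutrophil markers, 1.60 FPKM of Ptgs2) and 10 mpk mouse 5 (502.8 CPM, 6.28 FPKM) had high neutrophil markers without the highest Ptgs2, and Ptger3 was highest in mice with high adipocyte markers.

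Among the receptors, Ptger4 (chr15:5236142-5273668), encoding EP4, was lower in vehicle mice and partly higher again in dosed mice. Sham mice spanned 5.11 to 6.33 FPKM (median 5.54) and vehicle mice 3.25 to 4.62 (median 4.16), with no overlap. Ptger4 fell by 0.44 on the log2 scale (95% interval -0.55 to -0.33, edgeR adjusted p = 2.56e-06). Medians were 4.64, 4.75 and 4.91 FPKM at 10, 30 and 90 mpk, and 5, 6 and 9 mice lay above every vehicle mouse. The log2 differences from vehicle were 0.13 at 10 mpk (95% interval -0.02 to 0.27, edgeR adjusted p = 0.291), 0.25 at 30 mpk (0.11 to 0.40, edgeR adjusted p = 0.0079) and 0.21 at 90 mpk (0.06 to 0.35, edgeR adjusted p = 0.0392). The 90 mpk call was lost in 19 of 40 fits that each left out 1 TNBS mouse, vehicle mouse 6 among them (0.20, edgeR adjusted p = 0.0608). Ptger4 was still below sham at each dose, by log2 differences of -0.31, -0.20 and -0.24 (edgeR adjusted p = 0.00657, 0.0047 and 0.000177). The gene overlaps Ttc33 on the other strand, which had a mean of 580.2 counts against 551.6 for Ptger4. Since the strand setting of the counting is not given, reads of the 2 genes may not be separated, and the values of Ptger4 are uncertain to that extent. Its nearest genes were Smim10l1 (r = 0.66), Tsc22d1 (0.63) and Clybl (0.62).

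Ptger3 (chr3:157272529-157351525), encoding EP3, was not called between vehicle and sham but was lower in mice given A1007. Sham mice spanned 1.06 to 3.14 FPKM (median 1.89) and vehicle mice 0.85 to 5.24 (median 2.01), a log2 difference of 0.26 (95% interval -0.43 to 0.96). Medians in dosed mice were 1.33, 1.11 and 1.20 FPKM at 10, 30 and 90 mpk, and all 3 ranges overlapped vehicle. The log2 differences from vehicle were -0.70 at 10 mpk (95% interval -1.28 to -0.12, edgeR adjusted p = 0.134), -0.97 at 30 mpk (-1.56 to -0.38, edgeR adjusted p = 0.0106) and -0.99 at 90 mpk (-1.57 to -0.40, edgeR adjusted p = 0.0145). Without vehicle mouse 6, the highest of its group, they were -0.76 at 30 mpk (edgeR adjusted p = 0.0348) and -0.77 at 90 mpk (0.0491). The 90 mpk call was lost under both limma fits on log2 FPKM, with quantile normalization and with the rank-sum test, and the 30 mpk call under the last 2. Ptger3 was also below sham at 30 mpk (-0.72, edgeR adjusted p = 0.0113) and 90 mpk (-0.74, edgeR adjusted p = 0.00337).

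The genes whose within-group deviations were most like those of Ptger3 were Aldh6a1 (r = 0.87), Ghr (0.87) and Gpd1 (0.87), all known from fat and liver. EP3 is known in adipocytes, and 5 adipocyte markers (Adipoq, Plin1, Cidec, Plin4 and Retn, a list added after these genes had been seen) were therefore read in every mouse. Their summed level ran from 22.0 to 623.6 CPM in sham (median 292.2), 19.7 to 584.4 in vehicle (119.5), 22.4 to 329.5 at 10 mpk (102.9), 22.4 to 256.6 at 30 mpk (83.2) and 22.2 to 222.5 at 90 mpk (95.8), with none at 0. No marker was called at any dose against vehicle or between vehicle and sham, while 2 of 5 at 30 mpk and 4 of 5 at 90 mpk were lower than in sham. Ptger3 and this level had r = 0.83 in sham, 0.96 in vehicle, 0.85 at 10 mpk, 0.65 at 30 mpk and 0.45 at 90 mpk. The first 3 passed in the added family by Pearson's r (adjusted permutation p = 0.0126, 0.0016 and 0.0113). Those in sham and vehicle also passed by Spearman's rho (0.89 and 0.93, adjusted permutation p = 0.0132 and 0.008). The list was picked because Ptger3 resembled genes known from fat in these same mice. These p-values therefore restate that likeness and cannot serve as a separate test of it. Without the 2 farthest mice r was 0.87, 0.94, 0.79, 0.70 and 0.79 in the same order. The part of adipose RNA in the Ptger3 differences was not tested.

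Ptger2 (chr14:45225652-45241277), encoding EP2, was higher in vehicle mice at 0.56 to 1.13 FPKM (median 0.78) than in sham mice at 0.44 to 0.77 (median 0.55), with 5 of 10 above every sham mouse. The log2 fold change was 0.46 (95% interval 0.13 to 0.78, edgeR adjusted p = 0.0304), and the call was lost without sham mouse 4 or 8 or vehicle mouse 5 or 9. The call was also lost with no filter, with the replicate block and with quantile normalization (adjusted p up to 0.123). Against vehicle it differed by 0.12, -0.06 and -0.05 on the log2 scale at 10, 30 and 90 mpk, with 95% intervals within -0.37 and 0.42, and no dose was called. Against sham all 3 dosed groups were higher, by 0.57, 0.38 and 0.40 (edgeR adjusted p = 0.00272, 0.0165 and 0.00803). The 90 mpk call was lost with quantile normalization (adjusted p = 0.0612). Its nearest genes were Hoxa11 (r = 0.60), Olfm1 (0.57) and Inafm2 (0.57).

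Ptger1 (chr8:84393307-84399382), encoding EP1, had medians between 0.70 and 1.02 FPKM in the 5 groups. It was not called between vehicle and sham (-0.16, 95% interval -0.57 to 0.25) or at any dose against vehicle. At 30 mpk it was lower than in sham mice (-0.31, edgeR adjusted p = 0.0228). Its values are uncertain, since the strand setting of the counting is not given. Its nearest genes were AI480526 (r = 0.71), Dock6 (0.68) and Dab1 (0.65).

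Over dose steps 0 (vehicle), 1 (10 mpk), 2 (30 mpk) and 3 (90 mpk) in the 40 TNBS mice, 4 members were called with a falling slope (12.5% of all genes were) and 2 with a rising slope (6.79%). Ptgs2 changed by -1.05 per step on the log2 scale (SE 0.15, edgeR adjusted p = 4e-06) and Ptges by -0.47 (SE 0.06, edgeR adjusted p = 1.12e-06). Ptger3 changed by -0.33 per step (edgeR adjusted p = 0.00746) and Ptgs1 by -0.12 (edgeR adjusted p = 0.0298). The Ptger3 slope lost its call with limma on log2 of FPKM plus 0.1 (-0.22, adjusted p = 0.0633) and with quantile normalization (-0.24, adjusted p = 0.0658), and was -0.16 with limma on log2 of FPKM plus 1. The Ptgs1 slope lost its call with both limma fits and with quantile normalization (adjusted p = 0.0664 to 0.0918). Hpgd rose by 0.12 per step (edgeR adjusted p = 0.0376) and Ptger4 by 0.08 (edgeR adjusted p = 0.0209). The slope of Hpgd lost its call in 15 of 40 fits that each left out 1 mouse, and that of Ptgs1 without vehicle mouse 2, 5 or 9.

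The differences between doses were tested directly, and no member was called by edgeR in any of the 3 comparisons. Over all genes 2.01% were called between 30 and 10 mpk, 0.368% between 90 and 30 mpk and 0.1% between 90 and 10 mpk. At an unadjusted edgeR p under 0.05 there were 3, 1 and 2 of the 9 tested members. Over all 17928 genes 3339, 3428 and 1955 were below that threshold. Between 30 and 10 mpk Ptges differed by -0.64 (95% interval -1.01 to -0.27, edgeR adjusted p = 0.0527), and without the 2 mice low in Xist it was called. For Ptgs2 the differences were -1.06 between 30 and 10 mpk (95% interval -2.05 to -0.06) and -0.54 between 90 and 30 mpk (-1.55 to 0.47). Of the 10 mice at 90 mpk 6 had less Ptgs2 than every mouse at 30 mpk. That difference was called in a fit of these 20 mice alone (-0.55, edgeR adjusted p = 0.0221) and with the rank-sum test (adjusted p = 0.0446), as was that of Ptger1 (0.0166 and 0.022). Hpgd differed by -0.02 between 30 and 10 mpk (-0.26 to 0.22) and by 0.05 between 90 and 30 mpk (-0.19 to 0.29).

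Compared with sham mice, members in dosed mice were called in both directions at each dose. At 10 mpk 5 of 9 were higher (21.3% of all genes) and 2 lower (14.7%), namely Ptgs1, Ptgs2, Ptges, Ptgis and Ptger2 up and Hpgd and Ptger4 down. At 30 mpk 5 were higher (30.3%) and 4 lower (28.7%), with Ptger1 and Ptger3 added to Hpgd and Ptger4. At 90 mpk 3 were higher (23.4%), namely Ptgs1, Ptgis and Ptger2, and 3 lower (21.9%), namely Hpgd, Ptger3 and Ptger4. These comparisons share the 10 sham mice, and each was fitted on its own 20 mice, so counts of calls also depend on the spread of each group. With all 50 mice in 1 fit the calls of Ptgs2, Ptges and Ptger1 at 30 mpk and of Ptgs1 and Ptger3 at 90 mpk were lost (adjusted p = 0.23, 0.0833, 0.12, 0.0634 and 0.0504).

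Other genes of the prostanoid pathway were read from a list of 24, of which 22 were tested (Ptgdr and Ptgdr2 were not). In vehicle mice against sham 7 were higher and 3 lower (18.2% and 13.5% of all genes were), with a median log2 fold change of 0.07. Those with the smallest p were Tbxas1, the thromboxane synthase (0.749 ± 0.234 against 0.221 ± 0.062 FPKM, mean ± SD, n = 10 each, log2 fold change 1.75, edgeR adjusted p = 1.35e-06), Ptgr1, a reductase of prostaglandin breakdown products (0.55), the secreted phospholipase Pla2g2a (2.59, edgeR adjusted p = 0.00178) and the exporter Abcc4 (0.44). At 10 mpk Tbxas1 alone was lower than in vehicle mice (-0.64, edgeR adjusted p = 0.036) and none was higher (2.91% and 2.83% of all genes). At 30 mpk 5 were lower and 3 higher (17.9% and 13.5% of all genes), shares near those of all genes. The leading ones were Tbxas1 (-1.16, edgeR adjusted p = 3.15e-05), Abcc4 (-0.66, edgeR adjusted p = 0.00102), Pla2g5 (-1.06, edgeR adjusted p = 0.00197), a secreted phospholipase, and, rising, the carbonyl reductase Cbr1 (0.42, edgeR adjusted p = 0.00104). At 90 mpk 5 were lower and 1 higher (11.1% and 7.12% of all genes). Tbxas1 (-1.11), Abcc4 (-0.50), Pla2g2a (-1.37) and Pla2g5 (-0.81) led the falls there, with edgeR adjusted p from 9.44e-05 to 0.0214. Ptges2 and Ptges3, the other synthases of prostaglandin E2, were not called in vehicle mice against sham (0.01 and 0.19) or at any dose against vehicle. Slco2a1, the importer that takes prostaglandins up for breakdown, had a falling slope over the dose steps and was lower than in vehicle mice at 30 and 90 mpk (-0.37 and -0.34, edgeR adjusted p = 0.0086 and 0.0246).

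**Figure D5:**
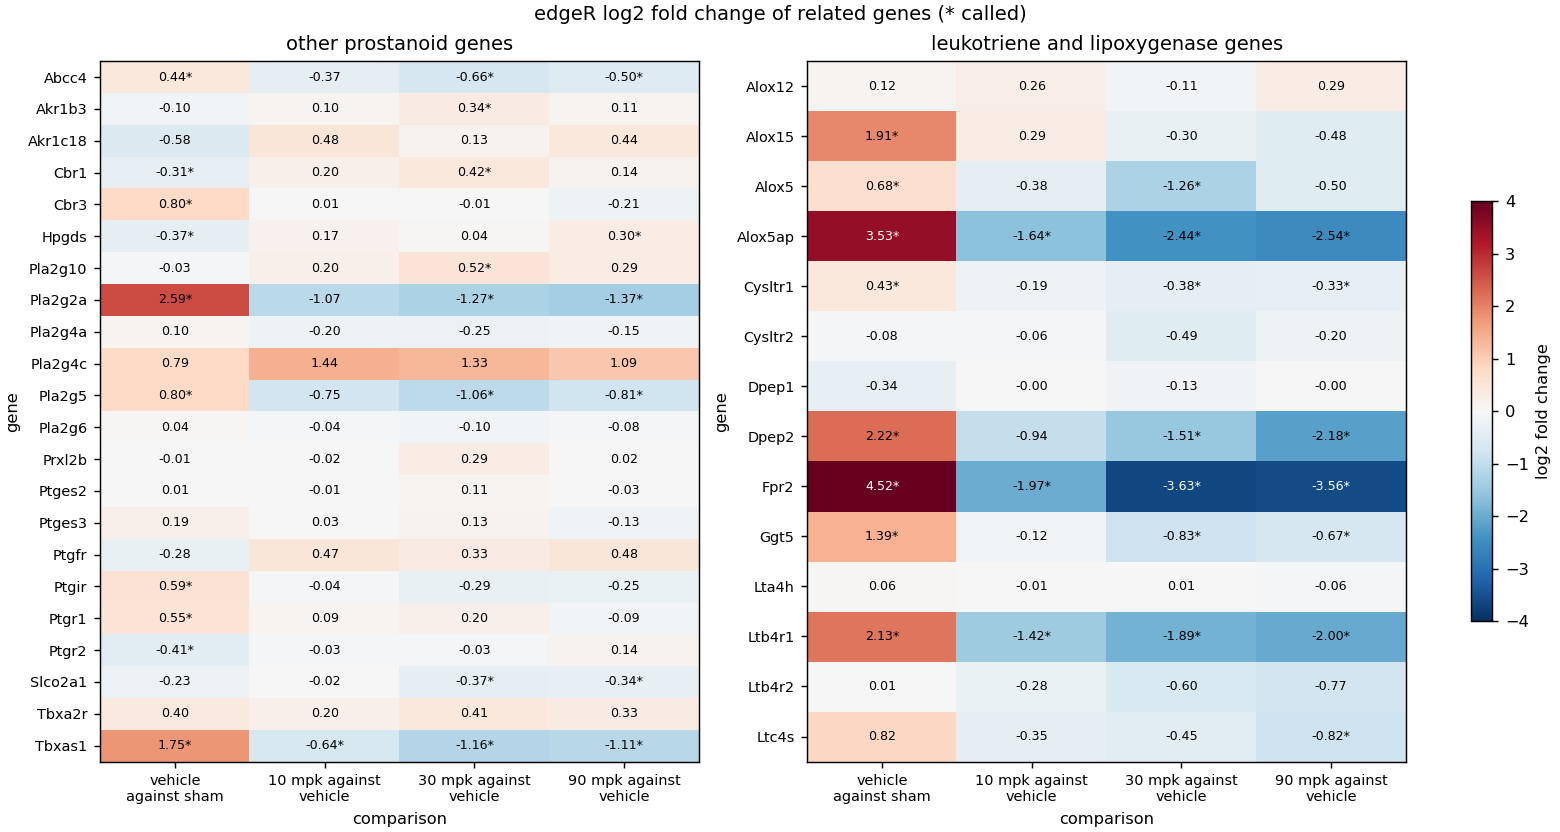
edgeR log2 fold change of the tested genes of both related lists, in vehicle against sham and in each dose against vehicle, with an asterisk where called. Tbxas1 was called in all 4 comparisons, and of 14 leukotriene and lipoxygenase genes 7 were called lower at 30 mpk and 7 at 90 mpk.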

How the data were processed

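Per the labels, poly(A) RNA of colon was sequenced from 50 mice in 5 groups of 10. Raw gene counts for each mouse were deposited as 1 table, with FPKM values, exon lengths and GRCm39 coordinates. Per the submitters' processing notes cutadapt 1.9.1, HISAT2 2.2.1, HTSeq 0.6.1 and DESeq2 were used. Their settings, strand included, were not given. FPKM as deposited by the authors was recomputed from counts and exon lengths, and 99.9966% of values with at least 500 counts lay within 1%. FPKM served for levels and ratios, and counts for tests.

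Genes were kept by filterByExpr over all 50 mice (count minimum 10), which left 17928. They were tested with edgeR 4.0.16 in R 4.3.3 (TMM scaling, glmQLFit robust, quasi-likelihood test, Benjamini-Hochberg over all genes, call at adjusted p under 0.05). Comparisons with sham were fitted on the 20 mice of both groups, all others on the 40 TNBS mice. Relations used 100000 permutations, two-sided. The members and lists were chosen with earlier results of these data known. The named genes were all members, up to 4 called genes of each list per comparison with the smallest p, and the 3 genes most like each member by Pearson's r of group-centred log2 CPM (prior count 2), without predicted genes. Ptges2 and Ptges3, the adipocyte list and the 20 added relations were chosen after values were seen. Alternatives were DESeq2 1.42.0, limma 3.58.1 on log2(FPKM + 0.1) and log2(FPKM + 1), quantile normalization, no filter, other sample sets, a replicate block, a rank-sum test and leaving out each mouse; a fit without 2 mice low in Xist was added after seeing the data. The edgeR fits were tested on simulated data. No 2 libraries of a group agreed within sampling noise (lowest chi-square per degree of freedom 7.95). The edgeR p-values weigh a group difference against the spread between mice. Depth limits Ptgds, at 0 to 7 counts per mouse.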

Additional observations from a re-analysis of the deposited data

Results flagged for a closer look

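Of 50 sets of 10 mice (10 members in 5 groups), 4 held 1 mouse far from the others, by the ratio of its gap to the nearest mouse over the group's range (Dixon's test). Chance alone gives about 1 in 20 such sets only for normally distributed values, and FPKM values need not follow that shape. Ptgs2 was highest in 10 mpk mouse 8 at 25.23 FPKM, with the next mouse at 8.31. Ptgs1 was lowest in 10 mpk mouse 10 at 8.40 FPKM, with the next at 12.07. Hpgd was highest in 30 mpk mouse 4 at 201.49 FPKM, with the next at 162.92. Ptger2 was highest in 30 mpk mouse 7 at 1.28 FPKM, with the next at 0.79.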

How the results depend on the processing

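For members called at 10 mpk against vehicle (1 in the reported fit), the count was 0 with no filter, by the rank-sum test, with a fit on only the 2 groups compared and by limma after adding 0.1 to FPKM, and 3 with all 50 mice in 1 fit and with DESeq2. Over all genes 541 were called with no filter and 1479 with DESeq2, beside 1030 as reported, and the other settings are given below. Leaving out 1 mouse at a time gave 0 to 3 members. Counts over all genes in those fits are not given here, so a shift of the whole table cannot be told apart. At 30 mpk against vehicle the rank-sum test called 3 members where the reported fit called 6 (4845 and 5625 over all genes). Between 30 and 10 mpk (0 reported) 1 member was called with the replicate block, all 50 mice in 1 fit, only the 2 groups compared, without the 2 mice low in Xist, by DESeq2, and by limma after adding 0.1 to FPKM. Between 90 and 30 mpk (0 reported) 2 (Ptgs2 and Ptger1) were called by the rank-sum test and in a fit on only the 2 groups compared, and between 90 and 10 mpk 1 with only the 2 groups compared and with DESeq2. Over all genes the former called 2753 and 3072, beside 66 as reported, and the latter 89 and 184, beside 18. The causes were not tested. All other member counts stayed within 1.5 times the reported ones. Leaving out 1 mouse gave 6 to 7 members for vehicle against sham, again with no count over all genes given here.

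By mean correlation, replicate numbers gave little sign of pairing: profiles of mice with the same number had a mean of 0.020, beside -0.002 for different numbers. Of the 10 numbers, 0 exceeded 0.1. For 10 of 50 mice the best match in another group shared their number. The number expected by chance is not given here, and whether 10 exceeds it was not tested. With the replicate block the calls of Ptger2 (vehicle against sham) and Ptger4 (90 mpk against vehicle) were lost, and Ptges became called at 30 against 10 mpk and at 90 mpk against sham. Of 488 alternative values for the 55 member comparisons called under at least 1 setting, 432 kept their direction and call, 38 lost the call, 18 gained it and 0 changed direction. Among the 44 never called, 29 values in 15 comparisons changed sign, at most 0.23 in size, with adjusted p of at least 0.596. Over all genes, quantile normalization moved the share of calls that were higher from 57.5% to 40.2% for vehicle against sham, from 43.0% to 57.2% at 30 mpk against vehicle and from 39.1% to 57.0% at 90 mpk. Calls at 10 mpk against vehicle numbered 1030 as reported, 4 with only the 2 groups compared, 0 by the rank-sum test, 588 by limma after adding 0.1 to FPKM and 1749 with all 50 mice. Between 90 and 30 mpk they numbered 66 as reported and 3072 with only the 2 groups compared, and between 30 and 10 mpk 361 as reported and 869 with all 50 mice. Counts of 0 to 7 per mouse limit what can be read from Ptgds.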

Other observations

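Arachidonic acid also feeds the lipoxygenases, which make leukotrienes, and a list of 16 leukotriene and lipoxygenase genes was read beside the prostaglandin genes; 14 were tested (Alox12e and Alox8 were not). In vehicle mice against sham 8 were called higher and 0 lower by edgeR (18.2% and 13.5% of all genes were), with a median log2 fold change of 0.75 against 0.02 over all genes. Fpr2, a receptor for lipoxins and formyl peptides, averaged 9.42 ± 11.2 FPKM in vehicle and 0.426 ± 0.177 in sham mice (SD, n = 10 each, log2 fold change 4.52, edgeR adjusted p = 0.000105). Alox5ap, the helper protein of 5-lipoxygenase, averaged 22.4 ± 31.3 against 2.06 ± 0.243 FPKM (log2 fold change 3.53, edgeR adjusted p = 0.000471). The peptidase Dpep2 (2.22) and the transferase Ggt5 (1.39), which convert leukotrienes, were higher too.

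Against vehicle 3 of 14 were lower at 10 mpk, 7 at 30 mpk and 7 at 90 mpk (2.91%, 17.9% and 11.1% of all genes), and 0 were higher at any of the 3 doses (2.83%, 13.5% and 7.12%). Ltb4r1, a leukotriene B4 receptor, fell by 1.42 on the log2 scale at 10 mpk, by 1.89 at 30 mpk and by 2.0 at 90 mpk (edgeR adjusted p = 0.031, 0.000768 and 0.000667). Alox5, the 5-lipoxygenase, was lower at 30 mpk than in vehicle mice (-1.26, edgeR adjusted p = 0.00024) and than at 10 mpk (-0.88, edgeR adjusted p = 0.0487). Against sham 6 were higher and 0 lower at 10 mpk (21.3% and 14.7% of all genes), 4 higher and 2 lower at 30 mpk (30.3% and 28.7%), and 4 higher and 1 lower at 90 mpk (23.4% and 21.9%). Several of these genes are known from neutrophils and macrophages, whose markers moved in the same comparisons: 7 of 7 macrophage markers were higher in vehicle than in sham mice, and 2, 5 and 7 were lower at 10, 30 and 90 mpk than in vehicle mice. Their part in these differences was not tested.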
